A study of Homo sapiens with 4 samples.

Results

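The genes described here encode subunits of the 5 complexes of the mitochondrial respiratory chain. They were chosen by symbol, as 13 genes of the mitochondrial genome (MT-) and 45 genes of the nuclear genome, 58 of the 36601 features in the deposited count tables, and each of the 58 symbols was found. The 3′ ends of polyadenylated RNA were counted in single cells, in droplets, from H9, an established human embryonic stem cell line, on its way towards dopaminergic neurons. There were 4 libraries, 1 per group: wild type at day 0, SIRT1 knockout at day 0, wild type at day 6 and SIRT1 knockout at day 6. SIRT1 is a deacetylase that uses NAD+. The labels do not say how the deletion was made, whether the knockout line is 1 clone, or whether the cultures were handled in parallel. All 4 groups carry the labels H9 and embryonic stem cell, and all were given the same growth medium in the labels.

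The respiratory chain passes electrons from NADH and succinate to oxygen and pumps protons across the inner mitochondrial membrane, and ATP synthase uses the gradient to make ATP. Complexes I, III, IV and V are built from subunits of both genomes, while complex II, succinate dehydrogenase, comes from nuclear genes only. Mitochondrial genes are transcribed as long RNAs from each strand of the circular genome and are then cut apart, and most of the messenger RNAs are polyadenylated, so their RNA levels are set apart from the promoters of the nuclear subunits. Human pluripotent cells are known for strong glycolysis, and the balance between glycolysis and respiration shifts as they differentiate.

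The position of the mitochondrial genes on their genome bears on what a 3′ count can tell apart, so the places where members overlap are shown first, from the GRCh38 mitochondrial chromosome with the GENCODE annotation. MT-ATP8 (MT:8366-8572, plus strand) and MT-ATP6 (MT:8527-9207, plus strand) share 46 bases of coding sequence. MT-ND4L (MT:10470-10766) and MT-ND4 (MT:10760-12137), also on the plus strand, share 7. In these stretches, printed 5′ to 3′ with 12 bases on either side, the capitals mark the bases that belong to both genes.

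MT-ATP8 and MT-ATP6, chrM:8515-8584: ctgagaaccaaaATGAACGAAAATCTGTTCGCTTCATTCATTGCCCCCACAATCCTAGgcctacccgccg

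MT-ND4L and MT-ND4, chrM:10748-10778: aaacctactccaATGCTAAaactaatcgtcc

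Each pair is known to stay on 1 RNA, with the longer gene at the 3′ end. A count for MT-ATP8 or MT-ND4L therefore cannot be fully told apart from the RNA of MT-ATP6 or MT-ND4, and the values of these 2 short genes are uncertain in this sense. MT-ATP6 also ends at the base, MT:9207, where MT-CO3 begins.

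The ends of the coding sequences differ too, and 3 of them are shown because the results turn on these genes. The capitals mark the letters of the stop codon that the genome holds. MT-ND3 (MT:10059-10404, plus strand) is among 6 members whose gene ends before the stop codon is complete, together with MT-ND1, MT-ND2, MT-ND4, MT-CYB and MT-CO3; in these the missing letters come from the added poly(A) tail. MT-CO1 (MT:5904-7445) ends in a stop codon of the mitochondrial code. MT-ND6 (MT:14149-14673) is the only member on the minus strand and is printed in its own sense.

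MT-ND3, last 30 bases: gactacaaaaaggattagactgaaccgaaT

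MT-CO1, last 30 bases: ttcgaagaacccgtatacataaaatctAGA

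MT-ND6, last 30 bases: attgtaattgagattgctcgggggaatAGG

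MT-ND6 is known as the mitochondrial messenger RNA without a stable poly(A) tail, so a count of polyadenylated 3′ ends may not measure it as it does the other 12, and its values are uncertain in this sense. It is also apart in base composition. A makes up 19.6% of its coding sequence and G 35.6%, while A makes up 26.8% (MT-CO3) to 38.6% (MT-ATP8) of the other 12.

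Cells were barcodes with at least 4000 UMIs (unique molecule counts), at least 1000 genes and at most 20% MT- UMIs, which gave 5533, 7275, 5372 and 4419 cells with wild type before knockout and day 0 before day 6; every set of 4 values below keeps this order (wild type day 0 first, knockout at day 0 second). Between 5 and 18 cell barcodes were shared by any pair of libraries. Levels are counts per 1000000 UMIs, summed over a library's cells (CPM), and with 1 library per group there is no replicate error, no test and no p-value. Intervals are exact 95% intervals that cover counting error only, so a difference whose interval excludes 1 separates these libraries and not the conditions. A gene is called past 1.5-fold where the ratio is at least 1.5 in either direction and its interval excludes 1, if it reached 10 CPM on either side; all 58 members did in all 4 comparisons. The targeted gene, SIRT1, was at 32.3, 7.11, 30.2 and 9.95 CPM, which is 4.54-fold lower in the knockout at day 0 (interval 4.13 to 5.01) and 3.04-fold lower at day 6 (2.77 to 3.34); 3′ counts do not show which part of the gene is missing. Median depth was 12645, 8367, 8590 and 13169 UMIs per cell. POU5F1, the pluripotency factor, was at 776 to 969 CPM in the 5 largest clusters of each day 0 library, and knockout cells differed among themselves in the share of UMIs from chromosome 20 (median 2.51% at day 0 and 2.41% at day 6, against 3.44% and 3.25% in wild type), so values are also given for the 2059 and 1207 knockout cells in which that share was at least 3%.

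As a share of all UMIs in cells, the 13 MT-encoded members made up 5.49%, 4.56%, 2.16% and 1.94%. The 45 nuclear members made up 1.66%, 1.65%, 1.26% and 1.29%. The MT-encoded sum was 1.20-fold lower in the knockout than in wild type at day 0 and 1.11-fold lower at day 6, while the nuclear sum differed by log2 -0.01 and 0.03 (-0.20 at day 6 with TMM factors, described below). From day 0 to day 6 the MT-encoded sum was 2.55-fold lower in wild type and 2.35-fold lower in the knockout, against 1.31-fold and 1.28-fold for the nuclear sum. There were thus 3.31, 2.77, 1.71 and 1.5 MT-encoded UMIs for each nuclear UMI, so the knockout had the lower ratio at either day and day 6 the lower ratio in either genotype. Because both sums come from the same cells, this ratio does not depend on how a library is scaled, but it does depend on which cells are counted. On the log2 scale it differed by -0.26 between knockout and wild type at day 0, by -0.18 at day 6, by -0.95 between days in wild type and by -0.88 between days in the knockout. Among cells of 8000 to 16000 UMIs the day 0 difference was -0.06, and above 16000 UMIs it was -0.76. With the knockout cells of at least 3% from chromosome 20 set against all wild-type cells, it was -0.06 at day 0 and 0.01 at day 6. The wild-type cells were not picked in this way, and 5327 of 5533 at day 0 and 4194 of 5372 at day 6 had at least 3%. The differences between days lay between -1.09 and -0.88 in both genotypes under each alternative choice of cells, and between -1.05 and -0.93 in the 3 depth bands of wild type. In the knockout they were -0.98 from 4000 to 8000 UMIs and -1.09 from 8000 to 16000, but -0.36 above 16000 UMIs (757 cells at day 0 and 1483 at day 6).

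**Figure D1:**
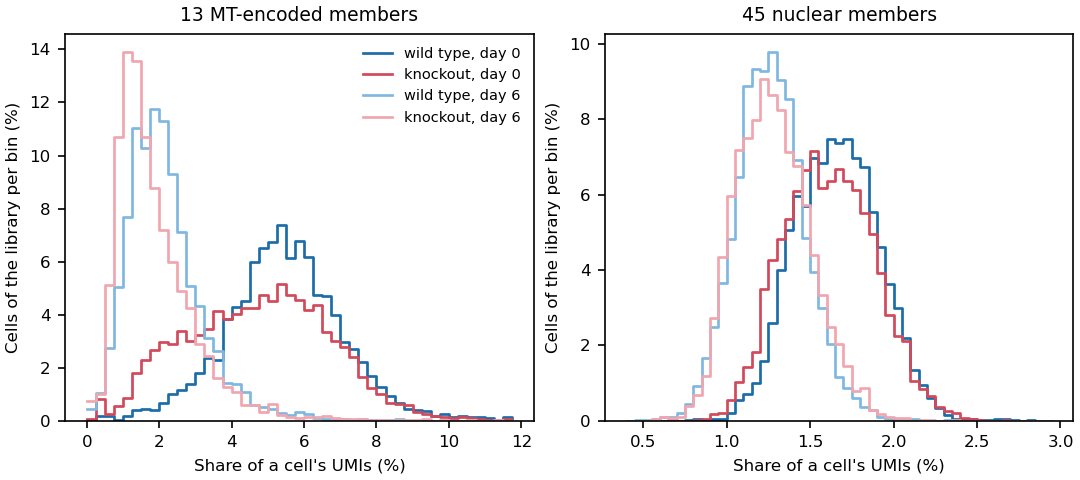
Share of each cell's UMIs held by the 13 MT-encoded members (left, bins of 0.25 percentage points) and the 45 nuclear members (right, bins of 0.05), as the percent of the library's cells per bin; lines are the 4 libraries, and single cells outside the axes are not drawn. The MT-encoded shares had medians of 5.44%, 4.81%, 2.0% and 1.61%, with a wider lower flank in the knockout at day 0, while the nuclear shares lay close for the 2 genotypes at each day.

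The spread over cells shows where in each library the MT-encoded members were low. The 5th to 95th percentile of the MT-encoded share ran from 2.82% to 8.23% in wild type at day 0 and from 1.57% to 7.90% in the knockout. On day 6 it ran from 0.803% to 4.13% in wild type and from 0.687% to 3.99% in the knockout. The upper ends of the 2 genotypes were thus close at each day, and the lower end lay lower in the knockout. Cells with under 1% of MT-encoded UMIs numbered 24 (0.434%), 122 (1.68%), 497 (9.25%) and 775 (17.5%). Their median share of nuclear member UMIs was 1.89%, 1.89%, 1.24% and 1.20%, against 1.66%, 1.60%, 1.26% and 1.28% in the other cells, so these cells were not low in the nuclear members at day 0. After thinning every cell to 4000 UMIs, Spearman's correlation of the MT-encoded with the nuclear share over the cells of a library was -0.08, -0.17, 0.05 and 0.17, which describes cells that share a library and is close to no relation.

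At day 0, 12 of the 13 MT-encoded members were lower in the knockout, and MT-ND6 was higher. The size was past 1.5-fold for 3 of them, MT-ND3, MT-ND4L and MT-ATP8, and for 0 of the 45 nuclear members; 2.05 percent of the 9095 genes measured were lower past 1.5-fold and 1.48 percent were higher. The median log2 ratio was -0.28 over the MT-encoded members and 0.00 over the nuclear members, against -0.01 over all measured genes. In complex I, MT-ND3 was at 6491, 3908, 1163 and 1209 CPM, that is 1.66-fold lower in the knockout at day 0. It encodes a small subunit at the joint between the membrane arm and the peripheral arm.

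MT-ND4L, whose RNA it shares with MT-ND4, was at 231, 142, 74.8 and 109 CPM, 1.63-fold lower in the knockout at day 0. MT-ATP8, a small subunit of the membrane part of ATP synthase, was at 68.6, 39.7, 19.8 and 19.6 CPM, 1.73-fold lower. These 2 are the short members that overlap a longer one on the same RNA, and the longer partners differed less: MT-ND4 was at 5157, 4237, 3765 and 2801 CPM and MT-ATP6 at 8917, 6996, 2830 and 2070 CPM, or log2 -0.28 and -0.35 at day 0. Among cells of 8000 to 16000 UMIs only MT-ND3 of the 3 was past 1.5-fold.

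The other MT-encoded members of complex I also belong to its membrane arm, and differed by less than the 3 past 1.5-fold, MT-ND6 in the other direction. MT-ND1 was at 1994, 1518, 1160 and 1051 CPM, a day 0 log2 ratio of -0.39. MT-ND2 was at 1771, 1237, 747 and 722 CPM, a day 0 ratio of -0.52. Both encode core subunits of the proton-pumping arm, and both lay lowest at day 6. MT-ND5, the subunit at the far end of that arm, was at 1019, 847, 801 and 581 CPM, log2 -0.27. MT-ND6 was at 267, 339, 272 and 278 CPM, which put the knockout at day 0 above the other 3 libraries, by log2 0.34 over wild type at day 0.

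Of the members outside complex I, the 3 of complex IV differed least at day 0. MT-CO1, which holds the oxygen-reducing site, was at 6246, 5613, 2961 and 3732 CPM, log2 -0.15. MT-CO2, which takes electrons from cytochrome c, was at 10030.5, 9427, 3648 and 2839 CPM, log2 -0.09. MT-CO3 was at 9373, 8555, 2999 and 3118 CPM, log2 -0.13. MT-CYB, the cytochrome b of complex III, was at 3369, 2782, 1141 and 875 CPM, log2 -0.28. Summed by complex, the MT-encoded members differed between knockout and wild type at day 0 by log2 -0.47 in complex I, -0.28 in III, -0.12 in IV and -0.35 in V, while the nuclear members of the same complexes differed by 0.02, -0.13, -0.03 and 0.13. The gap between the genomes was thus widest in complexes I and V and narrow in IV.

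**Figure D2:**
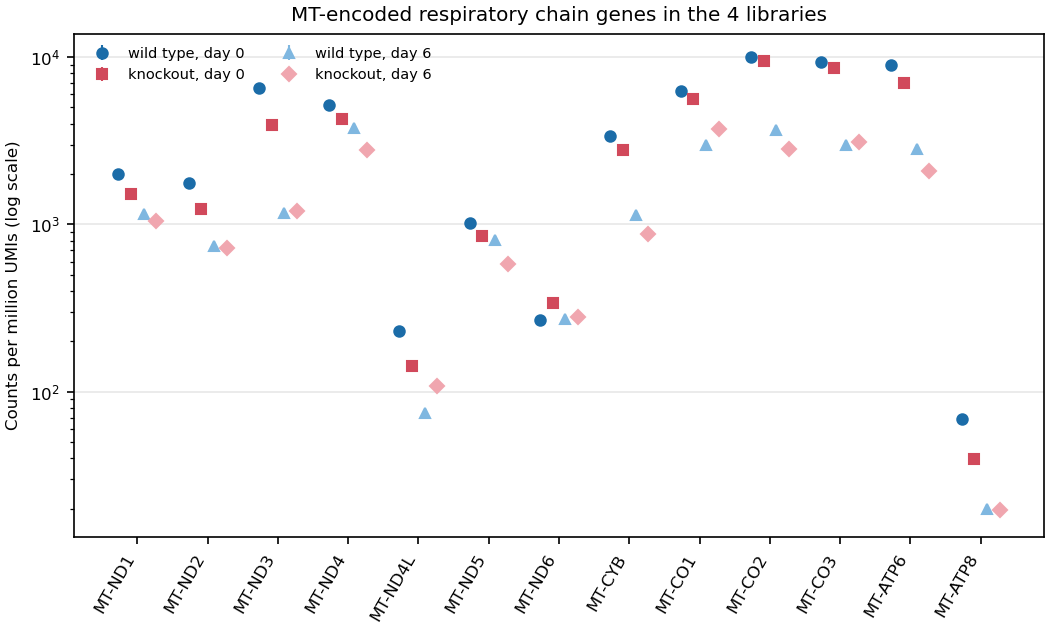
Level of the 13 MT-encoded members in each of the 4 libraries, in CPM on a log axis; points are libraries (1 per group) and bars are exact 95% counting intervals, mostly smaller than the points. Members are shown by gene and levels of different genes are not compared; MT-ND6 is the member at nearly the same level in all but the knockout at day 0 (267, 339, 272 and 278 CPM).

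The MT-encoded share at day 0 differed between clusters and, less evenly, with depth. Clusters were made in each library without the members and without any MT- gene. At day 0, 1 wild-type cluster (110 cells) and 2 knockout clusters (2696 cells) had APLN and SLC16A3, a peptide hormone and a lactate transporter known to be induced by low oxygen, among their 10 leading genes; these clusters were picked out after their values were seen. Inside them the MT-encoded share was 3.32% in wild type and 3.65% in the knockout, against 5.53% and 4.98% in the other cells, log2 -0.74 and -0.45. The nuclear members differed by log2 -0.09 and -0.06 between the same cells. MT-ATP6 (log2 -1.05 in wild type and -0.72 in the knockout), MT-CYB (-0.89 and -0.64) and MT-CO2 (-0.87 and -0.54) were lower inside, while MT-ND4L differed by -0.10 and -0.09. MT-ND6 went the other way in the knockout, 1.57-fold higher inside, and was 1.02-fold in wild type with an interval that holds 1 (0.913 to 1.15).

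Without these clusters, the knockout's MT-encoded sum was lower than wild type's at day 0 by log2 -0.15 in place of -0.27, and the nuclear sum differed by 0.0063. MT-ND3 (-0.61), MT-ND4L (-0.68) and MT-ATP8 (-0.69) were still past 1.5-fold, and MT-ND2 was at -0.44. MT-CO2 was then at 0.05, MT-CO3 at -0.01, MT-CYB at -0.12 and MT-ND6 at 0.11. The part of these clusters in the day 0 difference was not tested beyond these values.

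By depth, the MT-encoded share at day 0 was 5.65% in wild type and 4.78% in the knockout among cells of 4000 to 8000 UMIs, 5.50% and 4.96% from 8000 to 16000, and 5.47% and 3.59% above 16000. The knockout cells above 16000 UMIs thus stood apart. The knockout cluster led by the metallothioneins MT1E, MT1G and MT2A (615 cells, median 19334 UMIs) had 3.36% MT-encoded UMIs and 1.90% nuclear member UMIs, the highest nuclear share among clusters of 50 or more cells. Whether depth has a part in the difference of the genotypes was not tested further.

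**Figure D3:**
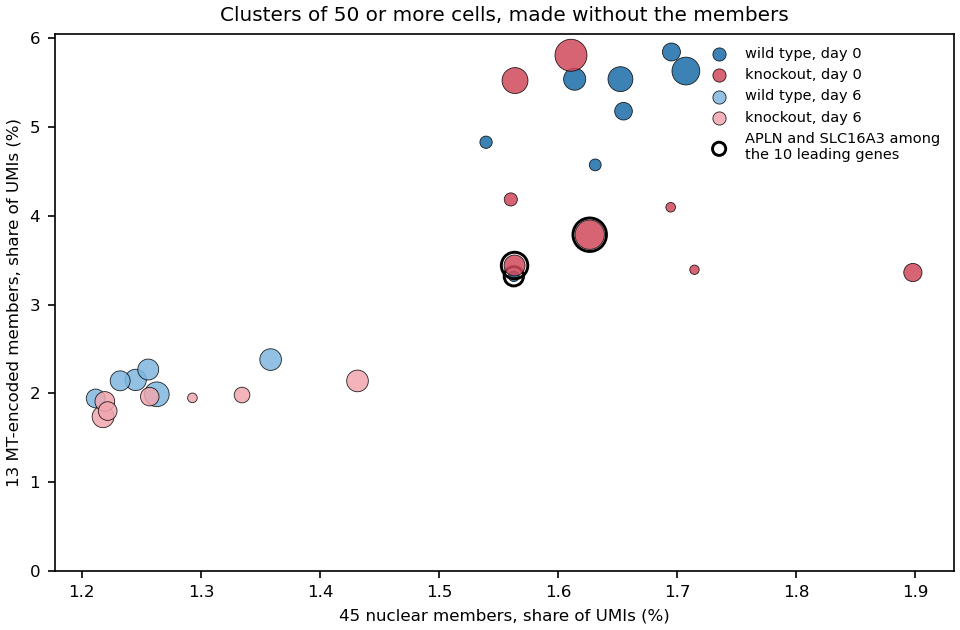
Share of UMIs held by the 45 nuclear members (horizontal) and the 13 MT-encoded members (vertical) in each cluster of 50 or more cells; points are clusters of 1 library, area grows with the number of cells, and black rings mark day 0 clusters with APLN and SLC16A3 among the leading genes. The day 6 clusters lie between 1.74% and 2.38% MT-encoded UMIs, below all day 0 clusters; the ringed clusters lie below most of the other day 0 clusters at a similar nuclear share.

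The nuclear members at day 0 lay close to wild type in every complex. The lowest ratios outside complex II were for UQCRB, an accessory subunit of complex III (446 and 363 CPM in wild type and knockout, 1.23-fold lower), NDUFB1, an accessory subunit of complex I (271 and 225), COX7B of complex IV (354 and 294) and UQCRQ of complex III (288 and 242). The highest were for ATP5PO, a subunit of the peripheral stalk of ATP synthase (217 and 261, 1.20-fold higher), COX4I1 of complex IV (711 and 839, 1.18-fold), ATP5MC3, a gene for the proton-carrying c ring (510 and 599, 1.17-fold), and NDUFB7 of complex I (286 and 332, 1.16-fold). In all, 23 nuclear members were above and 22 below their wild-type level, so the genome as a whole had no direction.

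At day 6 the comparison of knockout with wild type depended on the scaling, which bears on every member. The median log2 ratio over all 8723 measured genes was 0.25 on the scale of total UMIs, and 0.01 with TMM factors, a scaling that trims the most different genes. On the first scale the median was -0.05 over the MT-encoded members and 0.09 over the nuclear members, so that both lay below the median gene, by 0.30 and 0.16. With TMM the medians were -0.28 and -0.15. The calls moved accordingly: past 1.5-fold there were 0 of 13 MT-encoded members (5 lower with TMM: MT-ND4, MT-ND5, MT-CYB, MT-CO2 and MT-ATP6) and 1 of 45 nuclear members, SDHD, higher (with TMM 2 lower, NDUFB10 and NDUFS6, and SDHD not called). Over all genes 17.4 percent were higher and 4.36 percent lower past 1.5-fold, so on the total scale the members were called less often than the background. With TMM 8.32 percent of all genes were lower and 6.64 percent higher, so that the MT-encoded members were called lower more often than the background (38.5%) and the nuclear members less often (4.44%).

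The MT-encoded members did not differ alike at day 6. MT-ND5 (log2 -0.46), MT-ATP6 (-0.45), MT-ND4 (-0.43), MT-CYB (-0.38) and MT-CO2 (-0.36) were lower in the knockout on both scales. MT-ND4L (0.54) and MT-CO1 (0.33) were higher on both scales. The remaining 6 lay between -0.14 (MT-ND1) and 0.06 (MT-CO3); of these, MT-ND3, MT-ND6 and MT-CO3 were above 0 on the total scale and below it with TMM. As a share of the MT-encoded UMIs, MT-CO1 made up 11.4%, 12.3%, 13.7% and 19.2%, so that it took its largest part in the knockout at day 6, while MT-ATP6 made up 16.2%, 15.3%, 13.1% and 10.7% and took its smallest part there.

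Complex II, whose genes are all nuclear, had the largest summed difference of the nuclear groups at day 6, 1.28-fold higher in the knockout (log2 0.35) against log2 -0.10 to 0.11 for the nuclear members of the other complexes. That order of sizes holds on the total scale only, since with TMM complex II was at log2 0.12 and the nuclear members of complex I at -0.33, though complex II was then the one nuclear group above 0. SDHD, a membrane anchor subunit, was at 61.3, 58.6, 22.8 and 34.8 CPM, 1.53-fold higher in the knockout at day 6 (interval 1.42 to 1.64). SDHC, the other anchor, was at 85.1, 88.5, 55.7 and 74.7 CPM. SDHA, the subunit that oxidises succinate, was at 36.0, 34.8, 25.4 and 32.6 CPM, and SDHB, its iron-sulphur partner, at 44.1, 36.2, 24.6 and 22.1 CPM. All 4 were lower at day 6 than at day 0 in either genotype on the total scale, with SDHA in the knockout at log2 -0.09 (0.0046 with TMM), and SDHB alone was lower in the knockout than in wild type at day 6.

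Nuclear members of the other complexes lay on either side at day 6. The lowest ratios were all in complex I. NDUFS6, a zinc-binding accessory subunit, was at 407 CPM in wild type and 296 in the knockout (1.38-fold lower), NDUFB10 at 225 and 165 (1.37-fold), NDUFS5 at 610 and 490 (1.246-fold) and NDUFB9 at 144 and 118 (1.22-fold). The highest outside complex II were NDUFB1 (75.5 and 108, 1.43-fold higher), NDUFA1 (125 and 162, 1.29-fold), ATP5F1A of the catalytic part of ATP synthase (276 and 344) and NDUFA8 of complex I (45.4 and 56.2, 1.24-fold). On the total scale 25 nuclear members were above and 20 below wild type, and with TMM 12 were above and 33 below.

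**Figure D4:**
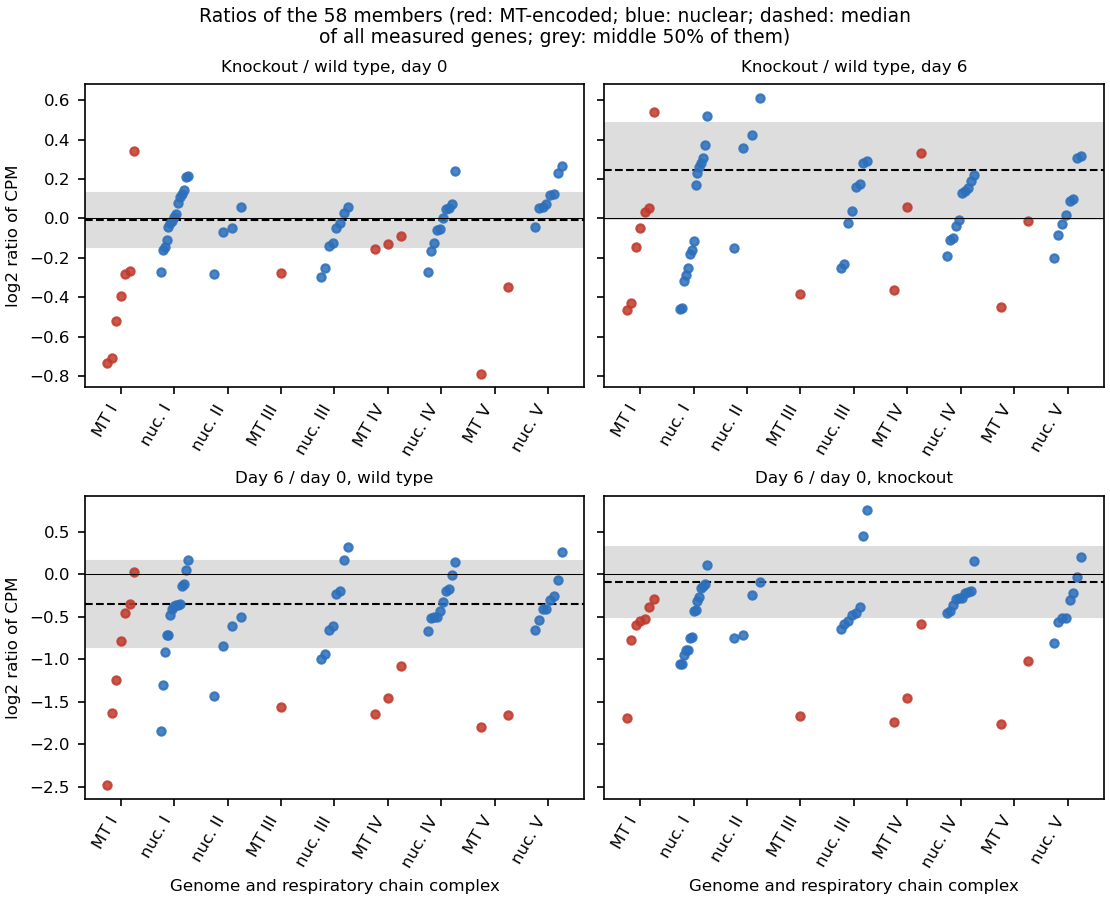
Log2 ratio of CPM for each of the 58 members (points; MT-encoded red, nuclear blue) by complex, in the 4 comparisons; dashed lines are the median of all measured genes and grey bands their middle 50%. For knockout against wild type at day 0 the lowest points are MT-encoded members of complexes I and V, while MT-ND6 of complex I is the highest of the 58 (log2 0.34), and between days most MT-encoded members lie below the grey band.

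From day 0 to day 6 the MT-encoded members were lower in both genotypes by more than the nuclear ones. In wild type 10 of 13 were lower past 1.5-fold, and in the knockout 9 of 13, while 14 and 11 of the 45 nuclear members were lower. Over all genes 37.2 percent were lower and 11.7 percent higher in wild type, and 20.9 percent lower and 13.9 percent higher in the knockout. The nuclear shares, 31.1% and 24.4%, lay near these, and the MT-encoded shares, 76.9% and 69.2%, well above. The medians were log2 -1.46 (MT-encoded) and -0.41 (nuclear) in wild type against -0.35 over all genes, and -0.78 and -0.38 in the knockout against -0.09. With TMM the medians in wild type were -1.13, -0.08 and 0.02, which leaves the MT-encoded members low and the nuclear members near the median gene. In the knockout the TMM medians were -0.68, -0.29 and 0.01, so there the nuclear members also lay below the median gene. The calls with TMM were 9 of 13 MT-encoded members lower in wild type and 7 in the knockout, and 6 and 10 of the 45 nuclear members, against 21.7 and 16.7 percent of all genes.

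Among the MT-encoded members MT-ND3 differed most in wild type, 5.58-fold lower at day 6. MT-ATP8 was 3.47-fold lower, MT-ATP6 3.15-fold, MT-CO3 3.13-fold, MT-ND4L 3.09-fold, MT-CYB 2.95-fold and MT-CO2 2.75-fold. In the knockout MT-ATP6 was 3.38-fold lower, MT-CO2 3.32-fold, MT-ND3 3.23-fold and MT-CYB 3.18-fold. MT-ND4, MT-ND5 and MT-ND6 lay within 1.5-fold in wild type (log2 -0.45, -0.35 and 0.03). As a result MT-ND3 went from 11.8% of the MT-encoded UMIs to 5.39% in wild type and from 8.56% to 6.23% in the knockout, and MT-ND4 from 9.39% to 17.4% and from 9.28% to 14.4%. The 12 members of the plus strand had a median of -1.51 in wild type and -0.90 in the knockout, against 0.03 and -0.29 for MT-ND6 on the minus strand. Across the 12, Spearman's correlation of coding length with the log2 ratio between days was 0.84 in wild type and 0.31 in the knockout. It describes genes that share RNAs, not independent points. The shortest of them are MT-ATP8 and MT-ND4L, whose counts cannot be fully told apart from MT-ATP6 and MT-ND4.

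The nuclear members that were lower past 1.5-fold in both genotypes were NDUFB1 (3.59-fold in wild type, 2.07-fold in the knockout), SDHD (2.69 and 1.68), NDUFA8 (2.47 and 1.93), UQCRQ (1.91 and 1.57), NDUFB2 (1.89 and 1.85), SDHB (1.79 and 1.64) and NDUFB10 (1.64 and 2.08). All 7, called here on the total scale, belong to complexes I, II and III. With TMM, NDUFB1, SDHD, NDUFA8 and NDUFB2 were still called lower in both genotypes. UQCRQ was then called in wild type only, and SDHB and NDUFB10 in the knockout only. In wild type alone UQCR11 (2.0-fold), NDUFV2 (1.64), COX7C (1.59), UQCRH (1.57), ATP5F1C (1.57), SDHC (1.53) and UQCR10 (1.52) were past the size, and in the knockout NDUFS6 (1.85), ATP5MC1 (1.75), NDUFB9 (1.69) and NDUFB7 (1.67); whether these differ between the genotypes was not tested. Of those in wild type alone, only UQCR11 was still called with TMM, while those in the knockout all were. On the total scale UQCRB was the only member higher past 1.5-fold, 1.69-fold in the knockout, at 446, 363, 501 and 614 CPM; with TMM, UQCRC2 (1.57-fold) and ATP5PO (1.51-fold) were also called higher, in wild type. UQCRC2, a core protein of complex III, was at 76.5, 78.0, 95.5 and 107 CPM, higher at day 6 in both genotypes, by log2 0.32 and 0.45. The next highest were ATP5PO (1.20-fold) and NDUFS3 (1.12-fold) in wild type and ATP5F1A (1.15-fold) and COX6C (1.11-fold) in the knockout. No member of complex IV among the nuclear ones apart from COX7C passed the size between days, and COX7C did so on the total scale only (1.26-fold lower with TMM).

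Of the 45 nuclear members, 35 had a promoter in the RefSeq table (GRCh38.p14, 250 bases before to 50 after the start site), and 3 known motifs were searched on both strands. The motif of NRF1, read as GCGC, any base and TGCGC in a row, was in 9 of the 35 (25.7%) against 6.28% of all 27305 promoters; CCGGAAG, bound by GABPA, in 13 (37.1%) against 10.7%; and AAGATGGC, bound by YY1, in 4 (11.4%) against 3.03%. Any of the 3 was in 21 (60%) against 17.9%. NRF1 and GABPA are the classical factors of nuclear respiratory genes. Of the 4 nuclear members lowest at day 6 in wild type, SDHD, NDUFA8 and UQCR11 held the NRF1 motif, and these windows are shown with 1 match in capitals. NDUFA8 and UQCR11 each held a further match that is not marked, which in NDUFA8 overlaps the marked one. NDUFB1, the lowest, held none of the 3.

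SDHD, chr11:112086753-112086782, plus strand: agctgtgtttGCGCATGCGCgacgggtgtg

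NDUFA8, chr9:122159764-122159793, minus strand: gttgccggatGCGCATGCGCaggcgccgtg

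UQCR11, chr19:1605472-1605501, minus strand: ccctccccgcGCGCGTGCGCgccgcggccg

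The other holders of the NRF1 motif included ATP5PO, at 217, 261, 261 and 256 CPM, which was 1.20-fold higher at day 6 in wild type. A match of letters describes the sequence and not binding, and holders of the motif stood at either end of the range.

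In clusters of 50 or more cells, the MT-encoded share lay above the nuclear share within each day. At day 6 the MT-encoded share was 1.94% to 2.38% over the wild-type clusters and 1.74% to 2.14% over the knockout clusters of 50 or more cells. In both genotypes the top value belonged to the cluster named pluripotent-like from POU5F1, NANOG, L1TD1 and DPPA4, which also had the highest nuclear share, 1.36% and 1.43%. Cells that kept pluripotency markers at day 6 thus had MT-encoded shares near those of the other day 6 clusters and below every day 0 cluster of 50 or more cells. A wild-type day 0 cluster of 8 cells (0.372% MT-encoded) and a knockout day 6 cluster of 19 cells (0.426%) were nearly without MT- RNA.

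Genes that serve the members were read from lists of related function. The list of other subunits of the 5 complexes, which are not members, also holds CYCS, cytochrome c, and ATP5IF1, an inhibitor of ATP synthase. Of its 36 measured genes, 1 was past 1.5-fold in the knockout at day 0. It was ATP5F1E, the epsilon subunit of ATP synthase, at 813 CPM in wild type and 473 in the knockout (1.72-fold lower). ATP5F1E lies on chromosome 20 (20:59025467-59032382), and in the knockout cells with at least 3% from that chromosome it was 1.44-fold lower than in wild type. NDUFAF5, a complex I assembly factor also on chromosome 20 (20:13784950-13821582), was the 1 of 47 assembly factors past the size, at 24.0 and 15.8 CPM. In those cells it was 1.37-fold lower. Both genes count towards the share by which those cells were picked, so the smaller differences there follow in part from the choice of cells. FASTKD5, which processes mitochondrial RNA, was the 1 of 18 in its list, at 12.04 and 7.91 CPM, and is named after its value was seen. None of 14 genes of mitochondrial DNA transcription and replication, 77 mitochondrial ribosomal proteins, 6 regulators of mitochondrial biogenesis, 18 genes of the tricarboxylic acid cycle and pyruvate dehydrogenase or 23 of import passed at day 0. Over all genes 2.05 percent were lower and 1.48 percent higher. The shares lower were 2.78% of the other subunits and 2.13% of the assembly factors, near that of all genes, and 5.56% (1 gene) of the RNA processing list.

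Of 11 hypoxia-linked mitochondrial genes, 3 (27.3%) were higher in the knockout at day 0, against 1.48 percent of all genes. BNIP3, a mitophagy receptor, was at 168 and 379 CPM (2.26-fold), FAM162A at 138 and 273 (1.98-fold) and PDK1, the kinase that holds back pyruvate dehydrogenase, at 31.5 and 50.7 (1.61-fold). The median of this list was log2 0.45, against -0.01 over all genes. The list was chosen with earlier results of these data known, so its excess over all genes is not independent of them.

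At day 6, 7 of 46 assembly factors were higher in the knockout, with NDUFAF3 (19.8 and 36.9 CPM, 1.87-fold) and LYRM7 (12.6 and 22.4, 1.77-fold) highest at 20 CPM or more. Of 77 mitochondrial ribosomal proteins 3 were higher, MRPL16 (2.04-fold), MRPL39 (1.62-fold) and MRPS31 (1.58-fold). Of 17 genes of the tricarboxylic acid cycle and pyruvate dehydrogenase 2 were higher, SUCLG2 (1.60-fold) and IDH2 (1.51-fold), and of 12 genes of mitochondrial DNA transcription and replication 1 was, MTERF2 (1.71-fold); MRPS31 and MTERF2 are named after their values were seen. All of these shares lie below the 17.4 percent of genes higher at day 6. With TMM fewer of them passed the size: 2 of 45 assembly factors (NDUFAF3 and LYRM7) and 1 of 77 ribosomal proteins (MRPL16) were higher, while MRPL39 (log2 0.46), MRPS31 (0.43), SUCLG2 (0.45), IDH2 (0.36) and MTERF2 (0.54) were not called. TMM also put 5 ribosomal proteins and 1 of 17 genes of the tricarboxylic acid cycle and pyruvate dehydrogenase lower, against 8.32 percent of all genes. Of 23 genes in the import list, TIMM23 was higher (12.1 and 20.02 CPM) and CHCHD10, a protein of the space between the membranes, 1.74-fold lower (102 and 58.6). With TMM, TIMM23 was not called (log2 0.50) and 4 of 23 (17.4%) were lower, against 8.32 percent of all genes.

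Of 12 measured genes in the hypoxia-linked list, 2 were higher in the knockout at day 6, BNIP3 (288 and 514 CPM) and BNIP3L (121 and 192). That is 16.7% of the list, against 17.4 percent of all genes. With TMM, BNIP3 (log2 0.60) and not BNIP3L (0.44) was called higher. TMM put 2 of the 12 lower (16.7%, against 8.32 percent of all genes), LDHA (log2 -0.68) and NDUFA4L2. NDUFA4L2, a relative of the member NDUFA4 that low oxygen is known to induce, was 3.45-fold lower, at 73.4 CPM in wild type and 21.3 in the knockout; in the knockout cells with at least 3% from chromosome 20 it was 1.67-fold lower than wild type. NDUFA4 itself, which is counted here with complex IV, was at 938, 836, 664 and 731 CPM.

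RNA outside cells was a possible source of counts for MT-encoded genes. In barcodes of 1 to 50 UMIs, taken as free RNA, MT- genes held 6.17%, 5.18%, 3.39% and 3.70% of the UMIs, in each library above the share in cells. MT-ND3, for example, was at 8005, 5257, 2008 and 2807 CPM in free RNA. For this gene the knockout thus stood below wild type at day 0 and above it at day 6, as in cells on the total scale. Over all MT- genes the directions at day 6 were opposite. Free RNA held more of them in the knockout (3.70% against 3.39%), while the MT-encoded sum in cells was lower in the knockout. With the free RNA profile subtracted at 10% of each library, the MT-encoded sum still differed by log2 -0.27 at day 0 and -0.21 at day 6.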

How the data were processed

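The authors deposited UMI counts for each gene and barcode, unnormalised and with all barcodes kept, in 4 libraries. The submitters' processing notes list Cell Ranger 6.1.2 and GRCh38, while the file headers of the matrices give Cell Ranger 4; for the annotation, no version is given in the sources used here. Libraries held 51424092 to 73451883 UMIs in cells.

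Cells were called here by the limits of 4000 UMIs, 1000 genes and 20% MT- UMIs, which left out 2 further barcodes, and doublets were kept. Counts were summed over cells per library and divided by the total, with a prior count of 0.5 in log2 ratios. Intervals are exact conditional binomial (Clopper-Pearson) at 95%, and cover counting error only. No test was run, since cells are not replicates and each group has 1 library. TMM factors came from edgeR 4.0.16 (R 4.3.3); clusters from scanpy 1.11.5 (2000 variable genes, 30 components, 15 neighbours, Leiden resolution 0.5), made per library without members and MT- genes. A cluster was named only with at least 3 markers of a type 2-fold higher than in the other cells. Positions come from GENCODE on GRCh38 and promoters from RefSeq. The interval and call code was tested on simulated data.

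The members, lists and rules were chosen with earlier results of these data known. Named are all MT-encoded and SDH members, the 4 highest and 4 lowest other nuclear members per comparison, members past 1.5-fold, and up to 2 genes per list and direction at 20 CPM or more. Alternatives were other scalings, depth, MT- limits, free RNA subtracted at 10%, equal weight per cell, no highest 5% of totals, knockout cells by chromosome 20, a size of 25% and, added later, no day 0 clusters led by APLN and SLC16A3.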

Additional observations from a re-analysis of the deposited data

Results flagged for a closer look

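In 5 members the knockout stood below wild type at day 0 and above it at day 6, with counting intervals that exclude 1 at both days and a difference past 1.5-fold. The difference of the 2 log2 ratios, day 6 less day 0, was 1.248 for MT-ND4L, 0.79 for MT-ND3, 0.79 for NDUFB1, 0.68 for SDHD and 0.59 for UQCRB. The differences were not tested, since there is 1 library per group, and MT-ND3 lay below wild type at day 6 with TMM factors. The 5 are 2 of 13 MT-encoded (15.4%) and 3 of 45 nuclear members (6.67%). By the same rule on the total scale, 1058 of 8134 measured genes (13%) had opposite directions at the 2 days. The nuclear share thus lay below that of all genes, and the MT-encoded share, which rests on 2 genes, lay near it. With TMM the differences of the 5 ran from 0.36 (UQCRB) to 1.01 (MT-ND4L). Of the 5, only MT-ND4L was then past 1.5-fold, with MT-ND3 at 0.55, NDUFB1 at 0.56 and SDHD at 0.44. On that scale 1 of 13 MT-encoded and 3 of 45 nuclear members, the nuclear ones outside the 5, had opposite directions past 1.5-fold. The share of all measured genes was 10.2%. Without the size limit, 4 of 13 MT-encoded and 22 of 45 nuclear members had opposite directions at the 2 days, against 27.6% of all measured genes, and with TMM 3 and 23, against 26.6%. Here only the counting intervals had to exclude 1, which depends on a gene's number of counts as well as on its ratio. These shares are therefore not a like comparison of the members with all genes.

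Barcodes below the cell limit were not used in the comparisons, and in 3 of their 4 sets of 51 UMIs or more MT- genes held a larger part of the UMIs in the knockout. The share was 8.77% in knockout barcodes of 51 to 500 UMIs at day 0 against 6.16% in wild type, and 10.2% against 7.49% at day 6. In barcodes of 501 to 3999 UMIs it was 4.99% at day 6 against 3.0%, but at day 0 it was lower in the knockout, 4.74% against 5.08%.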

How the results depend on the processing

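Values are log2 ratios of the sums, MT-encoded before nuclear, then counts of members past 1.5-fold. For knockout against wild type at day 0 (-0.27 and -0.01; counts 3 and 0) they were -0.27 and -0.015 scaled to UMIs outside MT- and ribosomal protein genes, -0.15 and -0.088 in cells of 8000 to 16000 UMIs (MT-encoded count 1), -0.26 MT-encoded at no more than 10% MT- UMIs, -0.27 and -0.0023 with free RNA subtracted, -0.21 and -0.041 with each cell weighted equally, -0.18 and -0.060 without the highest 5% of totals, -0.17 and -0.11 in the chromosome 20 class, and -0.15 and 0.0063 without the APLN and SLC16A3 clusters, an alternative chosen after seeing the data that turned the sign of the nuclear sum. At a size of 25% the MT-encoded count was 7, where 7.99 percent of all genes were lower and 6.74 percent higher.

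For knockout against wild type at day 6 (-0.15 and 0.03; counts 0 and 1) they were -0.39 and -0.20 with TMM (counts 5 and 2), -0.25 and -0.061 scaled outside MT- and ribosomal protein genes (nuclear count 0), -0.21 and 0.0085 in cells of 8000 to 16000 UMIs (counts 2 and 2), -0.21 MT-encoded with free RNA subtracted, -0.18 and 0.018 weighted equally, -0.17 and 0.025 without the highest totals, and -0.025 and -0.035 in the chromosome 20 class (nuclear count 2). The nuclear sum thus changed sign under TMM, that other scaling and the chromosome 20 class. At a size of 25% the counts were 7 and 7, with 41.5 percent of all genes higher and 8.93 percent lower.

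For day 6 against day 0 in wild type (-1.35 and -0.39; nuclear count 14) they were -1.02 and -0.063 with TMM (nuclear count 8, of which 6 lower and 2 higher, where all 14 were lower), -1.25 and -0.30 scaled outside MT- and ribosomal protein genes (nuclear count 9), -1.34 and -0.40 by depth, and MT-encoded -1.33 at no more than 10% MT- UMIs, -1.42 with free RNA subtracted, -1.34 without the highest totals and -1.36 without the day 0 clusters; the nuclear count at a size of 25% was 29. In the knockout (-1.23 and -0.35; nuclear count 12, of which 11 lower) they were -1.14 and -0.25 with TMM, -1.22 and -0.34 scaled outside MT- and ribosomal protein genes, -1.40 and -0.31 by depth, -1.37 and -0.36 with free RNA subtracted, -1.32 and -0.33 weighted equally, -1.33 and -0.31 without the highest totals, -1.20 and -0.32 in the chromosome 20 class and -1.36 and -0.37 without the day 0 clusters, with MT-encoded -1.23 at no more than 10% MT- UMIs and a nuclear count of 26 at a size of 25%. The cause of these shifts was not tested.

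No paired analysis was possible because each group has 1 library. Of 1428 values of single members under the alternatives, 737 lay within the counting interval of the value given above. Differences between libraries prepared apart cannot be told apart from those of genotype or day, and leaving out a replicate could not be tried.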

Other observations

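Between days the lists of related function differed from each other, beside 37.2 percent of all genes lower past 1.5-fold in wild type and 20.9 percent in the knockout. In wild type 29 of 48 assembly factors, 10 of 14 genes of mitochondrial DNA transcription and replication, 11 of 18 of mitochondrial RNA processing and 40 of 77 mitochondrial ribosomal proteins were lower past 1.5-fold at day 6, with medians of log2 -0.79, -0.75, -0.68 and -0.61 against -0.35 over all genes. In the knockout the counts were 19 of 47, 5 of 14, 5 of 17 and 20 of 77, with medians of -0.39, -0.24, -0.24 and -0.39 against -0.09; the share of ribosomal proteins there, 26.0%, lay near that of all genes. Of 37 genes in the list of other nuclear subunits, which also holds CYCS and ATP5IF1, 14 (37.8%) were lower in wild type and 7 (18.9%) in the knockout, which is close to all genes. With TMM the wild-type counts of the first 4 lists fell to 16, 4, 7 and 16, against 21.7 percent of all genes, and the knockout counts to 16, 3, 2 and 14, against 16.7 percent. SLIRP, which binds mitochondrial messenger RNA, was at 700 CPM in wild type at day 0 and 201 at day 6 (3.49-fold lower) and at 484 and 217 CPM in the knockout (2.23-fold lower). TIMMDC1, an assembly factor of complex I, was at 78.3 and 18.7 CPM in wild type and at 64.9 and 28.3 in the knockout. The 18 genes of the tricarboxylic acid cycle and pyruvate dehydrogenase were lower in 6 (33.3%) in wild type and in 1 (5.56%) in the knockout, where IDH2 was 1.79-fold higher.

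NDUFA4L2 was at 3.70 CPM in wild type at day 0 and 73.4 at day 6 (19.8-fold higher), and at 3.02 and 21.3 CPM in the knockout (7.04-fold). LDHA, lactate dehydrogenase, was at 229 and 1359 CPM in wild type (5.93-fold higher) and at 316 and 998 in the knockout (3.16-fold). These genes are named after their values were seen.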
